A study of Mus musculus with 50 samples.

Results

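CD45-bright cells were the cells in which the CD45 antibody stain was strongest within each piece of mouse liver. Among the 49917 segmented cells with at least 20 gene counts, the 5% with the highest mean CD45 intensity in each tissue area were taken as bright, which gave 2497 cells. The 24954 cells below the median of their area served as the dim cells, and the 22466 cells between the median and the top 5% were used only for the profile along the stain. The members were therefore chosen by CD45 intensity, whose own difference between the sides is a description without a test. No transcript entered the choice. The number of bright cells is fixed at 5% of each area and is no result.

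The study imaged CosMx spatial transcriptomics, in which single RNA molecules are counted in segmented cells of a tissue section, together with stains for CD45, CD3, B2M, PanCK and DAPI, on 5 µm sections of paraffin-embedded liver. HIRA KO livers came from C57BL/6 mice with HIRA fl/fl alleles, and control livers from wild-type C57BL/6 mice. At an age of 6 months both groups were given AAV8-TBG-Cre, and the livers were taken 12 months later, at 18 months, so the controls also carried virus and Cre. The TBG promoter is active in hepatocytes, so the deletion is aimed at hepatocytes and not at the leukocytes described here. HIRA deposits the histone variant H3.3. Hira was not among the 1000 targets of the panel (0 targets), and the deletion could not be checked in these cells.

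The 50 fields of view fell into 6 tissue areas, 3 control and 3 HIRA KO, with 8 or 9 fields each, and the area was the replicate. The labels name no mouse for a field, and whether each area is 1 animal is taken from the series design and not shown by the files, so p-values here measure the spread between areas. The control areas were mounted on 1 side of the slide and the HIRA KO areas on its opposite side, so genotype and position cannot be told apart. Each area gave 342 to 509 bright cells with 36049 to 91062 gene counts in all, against 3414 to 5089 dim cells with 336639 to 795548 gene counts. The imaging system drew the cell outlines and transcripts of touching cells can fall inside them, and no doublet caller was run.

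CD45, encoded by Ptprc, is a receptor-type tyrosine phosphatase found on nearly all nucleated cells of the blood-forming lineage and absent from hepatocytes, cholangiocytes, endothelial and stellate cells. It acts on Src-family kinases and sets the threshold of antigen-receptor signalling in T and B cells. In liver, CD45 marks Kupffer cells, which are the resident macrophages of the sinusoids, recruited monocytes and dendritic cells, lymphocytes and, at a lower level, plasma cells.

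Bright cells were not spread evenly over the tissue. In control area 1, 22.6% of the cells of 1 field were bright (95% Wilson interval 20.1 to 25.3), in HIRA KO area 1 25.6% (23.5 to 27.9), and in HIRA KO area 3 28.02% (25.6 to 30.6), while no other field of these areas passed 4.68%. These 3 dense fields held 220, 388 and 339 bright cells, which were 53.8%, 76.2% and 90.2% of the bright cells of their area. In the other 3 areas the densest field held 15.5% to 25.6% of the bright cells, at 5.99%, 7.82% and 10.4% of its cells. At the other end, 1 field of HIRA KO area 3 held 0 bright cells of 904, which allows a share of up to 0.332%. Intervals and limits of shares cover counting error only. Where leaving out the 3 dense fields, with the sides set again in the remaining fields, moved a list's calls by over 1.5 times or ended the call of a gene given below, the value is given beside it.

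**Figure D1:**
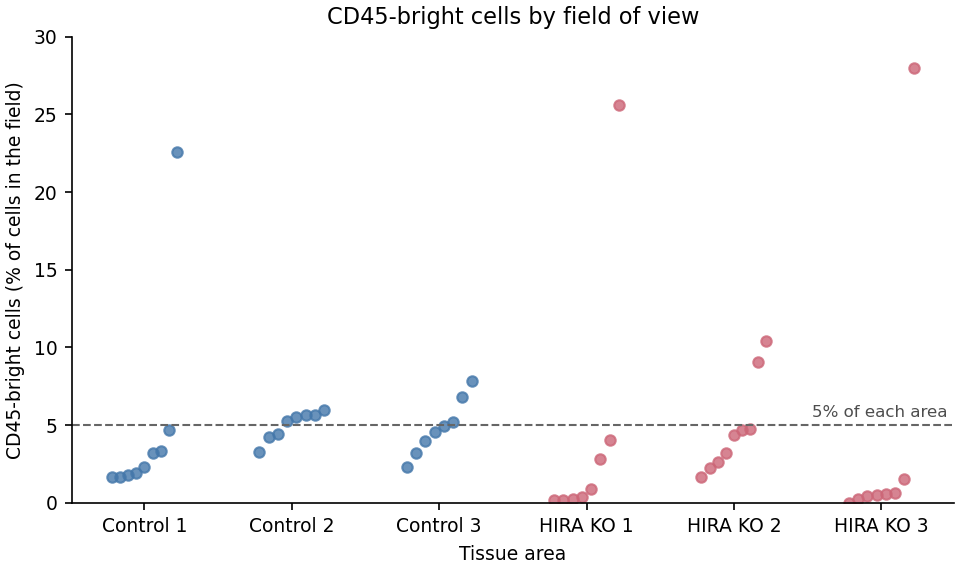
CD45-bright cells as a share of the cells of each field of view (y axis, %), with 1 point per field and the 6 tissue areas along the x axis. The densest field stood at 22.6% in control area 1, 25.6% in HIRA KO area 1 and 28.02% in HIRA KO area 3, apart from all other fields, which reached at most 10.4%.

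The stain threshold itself differed between areas. The lowest intensity of a bright cell was 4616, 2661 and 4292 units in control areas 1 to 3, and 12899, 4780 and 9797 units in HIRA KO areas 1 to 3, where the unit is the mean pixel value of the cell. Median intensity of bright cells ran from 3426 units in control area 2 to 18828 units in HIRA KO area 1, against 560 to 798 units in dim cells. The areas with a dense field had the highest bright medians, at 7997, 18828 and 17464 units. In HIRA KO areas 1 and 3, 164 and 98 bright cells held a pixel at the ceiling of the image, as did 1 to 22 bright cells in each other area. Just inside the threshold, between the 95th and 96th percentiles, Ptprc stood at 783 to 2235 counts per 1000000 gene counts (CPM). Just outside it, between the 94th and 95th percentiles, Ptprc stood at 955 to 2825 CPM, so neighbouring bands overlapped.

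The transcript of CD45 followed its protein. Ptprc (mouse GRCm38.p6 in RefSeq, chromosome 1, 138062859 to 138175756) stood at 1297, 1985 and 1664 CPM in the bright cells of control areas 1 to 3 and at 2108, 1361 and 3044 CPM in those of HIRA KO areas 1 to 3. In dim cells it stood at 533 to 655 CPM, below every bright value. Its log2 fold change was 1.90 (SE 0.175, n = 6 areas, Benjamini-Hochberg adjusted p = 4.48e-06 by edgeR's quasi-likelihood test), a 3.73-fold difference. With each cell thinned to 20 gene counts, 3.93% ± 1.63 (SD, n = 6 areas) of bright and 1.24% ± 0.217 of dim cells kept a Ptprc count, higher in 6 of 6 areas (exact sign-flip test, two-sided, p = 0.03125, the smallest that 6 areas can give). Leaving out bright cells that were also in the top 5% for CD3, B2M or PanCK, the difference was 2.005 percentage points and missed the threshold (exact p = 0.281). Unthinned, 21.6% ± 9.69 of bright and 7.30% ± 1.91 of dim cells held a Ptprc count, at median depths per cell of 87.0 to 204.5 and 81.0 to 156.0 counts. Most dim cells (72.9% on average) fell into the hepatocyte class described below, while 17.1% had no class and small shares fell into leukocyte classes. The highest of the 10 negative control probes stood at 580 to 695 CPM in the dim sums and at 232 to 512 CPM in the bright sums. Dim Ptprc was thus near background, and its fold change is set against that level. Ptprc was not counted by class, so which dim cells gave these counts was not tested.

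The other stains and the size of the cells were not used in the choice. Median cell area was 5880 ± 1024 square pixels (SD, n = 6 areas) in bright cells and 15723 ± 2889 in dim cells, and nuclear area was 2140 ± 272 against 3185 ± 105 square pixels. Bright cells thus had the smaller median area and the smaller median nuclear area in every area. The difference in nuclear area was not past the threshold and had the opposite sign when cells were chosen by maximum CD45 (63.2 square pixels higher in bright cells) and among small cells (90.8 higher). The DAPI stain of DNA was higher at 6874 ± 3267 units against 2245 ± 372, as were the CD3 stain of T cells at 1233 ± 653 against 625.2 ± 114 and the B2M stain of MHC class I at 4299 ± 625.4 against 2683 ± 384. The PanCK stain of keratins was lower at 1989 ± 711 units against 2828 ± 501. Gene counts per 1000 square pixels were 23.2 ± 10.4 in bright and 7.71 ± 1.996 in dim cells, and negative control probes took 0.211% ± 0.0684 of counts against 0.479% ± 0.0321. Each of these 8 measures differed in the same direction in 6 of 6 areas (exact sign-flip test, two-sided, p = 0.03125, adjusted p = 0.0352 over 9 measures). The ninth, gene counts per cell, was 132 ± 41.5 in bright and 114 ± 28.4 in dim cells and was higher in 4 of 6 areas (exact p = 0.219). Without the dense fields it was 13.5 counts lower in bright cells on average, also short of the threshold (exact sign-flip adjusted p = 0.125).

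The CD3 stain was bright in many of the same cells. Of the bright cells, 28.9% to 70.7% per area were also in the top 5% of their area for CD3, against 1.96% to 23.98% for B2M and 0.798% to 6.43% for PanCK. Bright cells were also in the top 5% for DAPI in 14.04% to 78.5% of cases, with the 3 highest shares (57.2%, 69.5% and 78.5%) in the areas with a dense field. Transcripts of the CD3 complex were higher as well: Cd3d had a log2 fold change of 1.03 (SE 0.132, adjusted p = 5.29e-05) and Cd3g of 1.11 (SE 0.148, adjusted p = 7.62e-05), while Cd3e had 0 counts in every sum. B2m, the light chain of MHC class I, had a log2 fold change of 1.53 (SE 0.197, adjusted p = 5.29e-05). Without cells in the top 5% of CD3, B2M or PanCK, the log2 fold change of Cd3d was 0.49 (adjusted p = 0.0706). By counts, the T cell class described below held only 0.798% to 4.39% of bright cells per area. That class share was highest in control area 2, where the CD3 overlap was lowest (28.9%), and lowest in HIRA KO area 3, where the overlap was highest (70.7%). Within areas the direction was the other: T cell genes took 1.26% to 1.485% of counts in bright cells also in the top 5% for CD3. In the other bright cells they took 0.653% to 0.989%, less in every area. The keratins Krt18, Krt8 and Krt19 had log2 fold changes of -1.25, -0.74 and -0.71, all past the threshold, the latter pair by less than the negative control probes.

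Across the panel, edgeR's quasi-likelihood test over 6 paired areas called 253 of 998 genes higher in bright cells (25.4%) and 244 lower (24.4%) at an adjusted p under 0.05, with 565 genes at an unadjusted p under 0.05. Relative to dim cells, 118 genes (11.8%) had a higher CPM and 362 genes (36.3%) a lower CPM in all 6 areas. The 10 negative probes, summed and put through the same fit, had a log2 fold change of -0.98 (SE 0.162, p = 4.54e-05 before adjustment) and were lower in 6 of 6 areas. Of the 244 genes called lower, 30 fell by more than the negative probes, and the other lower calls did not exceed the change of this background. Over all genes tested the median log2 fold change was -0.02 with TMM scaling and -0.28 with library size alone, where 156 genes were called higher and 430 lower, and the changes below are relative to the first. Of the genes called higher, 196 had a mean count above that of the highest negative probe (191.5 counts per sum). The counts called in the lists below stand beside these shares of all genes tested, 25.4% higher and 24.4% lower.

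**Figure D2:**
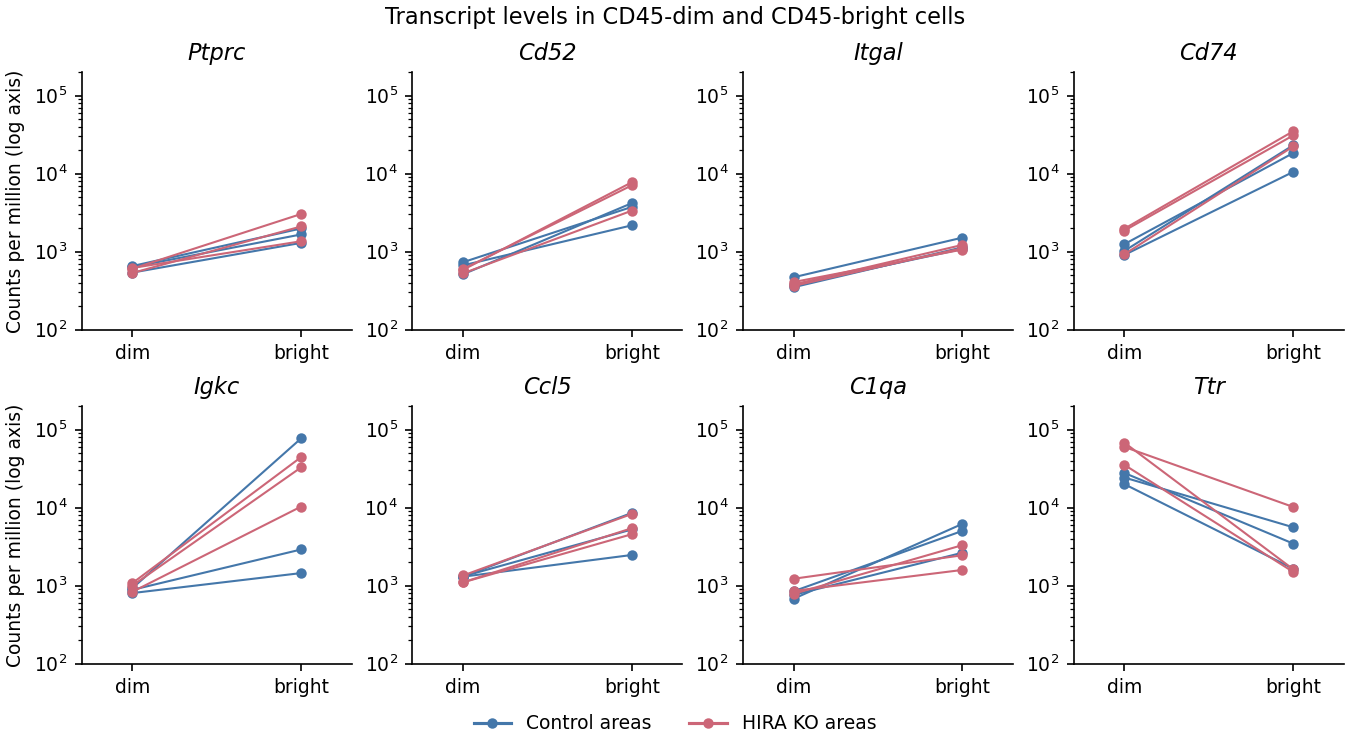
Counts per 1000000 gene counts (y axis, log axis) of 8 genes in the dim and bright cells of each area, with 1 line per tissue area and control and HIRA KO areas in separate colours. Ptprc, Cd52, Itgal, Cd74, Igkc, Ccl5 and C1qa rose and Ttr fell in all 6 areas, and Igkc spread from 1451 to 77480 CPM among bright cells.

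Genes shared by most leukocytes rose together. All 11 pan-leukocyte genes tested were called higher, with a median log2 fold change of 1.63. Cd52, a small surface glycoprotein of lymphocytes and monocytes (chromosome 4, 134093538 to 134095073), stood at 2177 CPM in the lowest, 3970 in the median and 7764 in the highest bright sum, against 514 to 733 CPM in dim cells. No bright value of Cd52 reached down to a dim one, and its log2 fold change was 3.12 (SE 0.267, adjusted p = 2.25e-06). Srgn, the proteoglycan core of leukocyte granules, had a log2 fold change of 1.65 and Itgb2, the β2 integrin chain, of 1.28. The list also held Cd53, Cd37, Cd48, Arhgdib, Tyrobp, Fcer1g and Rac2, all called higher, also without the dense fields.

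Antigen presentation by MHC class II gave the largest changes. All 8 class II genes were called higher with a median log2 fold change of 2.37. Cd74, the invariant chain that guides class II molecules, stood at 18380, 10540 and 23160 CPM in bright cells of control areas 1 to 3 and at 30960, 22330 and 35000 CPM in those of HIRA KO areas 1 to 3. Dim cells held 910 to 1972 CPM of Cd74, so the sides did not overlap, and the log2 fold change was 4.38 (SE 0.255, adjusted p = 1.3e-07), a 20.8-fold difference. The class II chains H2-Aa, H2-Ab1 and H2-Eb1 followed at log2 fold changes of 3.77, 3.40 and 3.07. H2-DMa, H2-DMb1 and H2-DMb2, which load the peptide, and Ciita, the transcriptional activator of the class, made up the rest of the list. All 7 class I genes were called higher too, with a median of 0.995, among them H2-D1 at 1.67, H2-K1 at 1.48 and H2-T23 at 0.995. H2-Q10, a class I gene made and secreted by hepatocytes and not in that list, moved the other way at -2.06.

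Immunoglobulin genes varied widely among the areas' bright cells. Igkc, the κ light chain constant region, stood at 77480, 1451 and 2913 CPM in bright cells of control areas 1 to 3 and at 32910, 10340 and 44560 CPM in those of HIRA KO areas 1 to 3, against 804 to 1080 CPM in dim cells. The 3 highest values belonged to the areas with a dense field. The log2 fold change of Igkc was 4.20 (SE 0.756, adjusted p = 7.48e-04) and that of Ighm, the heavy chain of IgM, was 3.91 (SE 0.652, adjusted p = 4.38e-04). Igha, the heavy chain of IgA, stood at 1137, 427 and 388 CPM in control areas 1 to 3 and at 2592, 4688 and 1186 CPM in HIRA KO areas 1 to 3, with 443 to 546 CPM in dim cells. Igha thus lay within or below the dim range in control areas 2 and 3, and its log2 fold change was 1.77 (SE 0.358, adjusted p = 0.00154). Of 7 plasma cell genes, 5 were called higher, with Jchain, which joins immunoglobulin subunits, and Mzb1 as the other two. Of 7 B cell genes, 5 were called higher with a median of 1.01, among them Cd79a of the B cell receptor, Ms4a1, Cd22 and Ighd. Without the dense fields 4 plasma cell genes and 2 B cell genes were called, and Cd22 was at 0.28 (adjusted p = 0.0603).

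Of 8 Kupffer cell genes, 5 were called higher, with a median of 1.64, and without the dense fields all 8 were. C1qa, a chain of complement C1q made by macrophages, stood at 2648, 6210 and 5049 CPM in bright cells of control areas 1 to 3 and at 1592, 3313 and 2457 CPM in those of HIRA KO areas 1 to 3. Dim cells held 682 to 1228 CPM of C1qa, below every bright value, and its log2 fold change was 2.18 (SE 0.255, adjusted p = 3e-05). C1qb and C1qc had log2 fold changes of 1.98 and 1.74. Cd5l, a secreted protein of Kupffer cells, stood at 1617, 7000 and 5798 CPM in bright cells of control areas 1 to 3 but at 516, 2470 and 636 CPM in those of HIRA KO areas 1 to 3, against 463 to 730 CPM in dim cells. In HIRA KO areas 1 and 3 the bright value of Cd5l was below that of the dim cells of its own area. The background differed too: the highest negative probe stood at 264 and 232 CPM in their bright cells. In their dim cells it stood at 695 and 620 CPM, near dim Cd5l, so lower Cd5l in bright cells is not shown. Of 11 genes of class II positive myeloid cells, 9 were called higher, among them Ccr2, the receptor of recruited monocytes, at 1.13 and Itgax, the integrin CD11c. Of 8 lysosomal and macrophage genes, 6 were called higher with a median of 0.99, led by Psap, the saposin precursor, at 2.26 and Lgals3, galectin-3, at 1.59. Apoe, made by macrophages and by hepatocytes, had a log2 fold change of 0.12 (adjusted p = 0.692).

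Of 14 T cell genes tested, 10 were called higher with a median of 0.68, among them Cd2, an adhesion receptor of T cells, at 1.33, Cd8a, Cd28, Icos and Ctla4. Without bright cells in the top 5% of the other channels 3 T cell genes were called. Of 16 NK and cytotoxic genes, 6 were called higher and 2 lower, with a median of 0.20, or -0.06 with library size alone. Ccl5, a chemokine of cytotoxic lymphocytes, had the largest change among them: it stood at 2476 CPM in the lowest, 5358 in the median and 8572 in the highest bright sum against 1104 to 1352 CPM in dim cells (log2 fold change 2.38, SE 0.234, adjusted p = 6.42e-06). Nkg7, a granule membrane protein, and Stat4, which relays interleukin 12, had log2 fold changes of 1.13 and 1.10. Klrb1 and Eomes were the members called lower, both by less than the negative probes, and without the dense fields 8 genes of the list were called higher and 0 lower. Of 7 neutrophil genes, S100a9 (0.95) and S100a8 (0.83), the subunits of calprotectin, were called higher, and the median was -0.05. These are 28.6% of the list, near the 25.4% of all genes tested that were called higher. None of the 5 mast cell and basophil genes were called higher, and Mcpt8 (-0.69) and Kit (-0.42) were called lower, both by less than the negative probes. Kit was at -0.38 without the dense fields (adjusted p = 0.063).

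Of 18 genes of CD45 signalling, 10 were called higher and 2 lower, with a median of 0.57. Among those higher were Lyn (0.86), a Src-family kinase of B and myeloid cells on which CD45 acts, Csk, the kinase that opposes CD45 on them, Syk, Jak1, Cd22, Cd8a, Lgals1 and Lgals3, and Ptprc itself, which is also counted among the pan-leukocyte genes. Src, the widely expressed family member, and Lgals9 (-0.58), galectin-9, were called lower, both by less than the negative probes. Of 12 adhesion genes, 8 were called higher. Itgal, the α chain of LFA-1 (chromosome 7, 127296139 to 127335137), stood at 1084, 1515 and 1137 CPM in bright cells of control areas 1 to 3 and at 1065, 1109 and 1222 CPM in those of HIRA KO areas 1 to 3. Dim cells held 351 to 470 CPM, and the log2 fold change of 1.86 carried the smallest SE of the genes named here (0.103, adjusted p = 1.3e-07). The mean count of Itgal, 148.8 per sum, was below that of the highest negative probe. In the bright sums alone Itgal held 41 to 100 counts, against 13 to 29 for the highest negative probe of each sum. The genes C1qc, Stat4, Ccr2, Lgals3, Lyn, Cxcr4, Col3a1 and Ighd also had a mean count below that of the highest negative probe. Selplg, the ligand of selectins, had a log2 fold change of 0.98.

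Of 26 chemokine ligands, 10 were called higher and 4 lower, with a median of 0.10, but with library size alone 3 were called higher and 7 lower, with a median of -0.16, so the balance of this list rests on the scaling. Higher were Ccl5, Ccl3, Ccl9, Ccl19, Cxcl9, Cxcl10, Cxcl12, Cxcl13, Cxcl16 and Cx3cl1, which include ligands of T cells, B cells and monocytes. The call of Cxcl12 (0.42, adjusted p = 0.0433) did not hold in most settings: it was lost on leaving out any 1 area, without the dense fields (0.26) and with library size alone, and its direction turned for the top 1% (-0.20). Cxcl9 lost its call in 5 of the other settings, library size alone among them. The members called lower, Cxcl1, Cxcl2, Cxcl3 and Cxcl5, are neutrophil attractants, and all moved by less than the negative probes. Of 14 receptors, 5 were called higher, among them Ccr2, Ccr7, Cxcr4 (1.12) and Cxcr6 (0.74), and with library size alone 3 were called higher and 2 lower. Of 14 interferon response genes, 4 were called higher, among them Oas3 (0.52), Cxcl9 (0.61) and Cxcl10, with a list median of 0.20. These are 28.6% of the list, near the 25.4% of all genes tested that were called higher. Without the dense fields 7 interferon response genes were called higher, and with library size alone 1 was called higher and 2 lower. Of 11 proliferation genes, 7 were called higher, with Tubb5 (0.97), Hmgb2 (0.94) and Mki67 (0.57) among them. Without the dense fields 4 proliferation genes were called and Mki67 was at 0.27 (adjusted p = 0.0554), and with library size alone 2 genes were called.

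**Figure D3:**
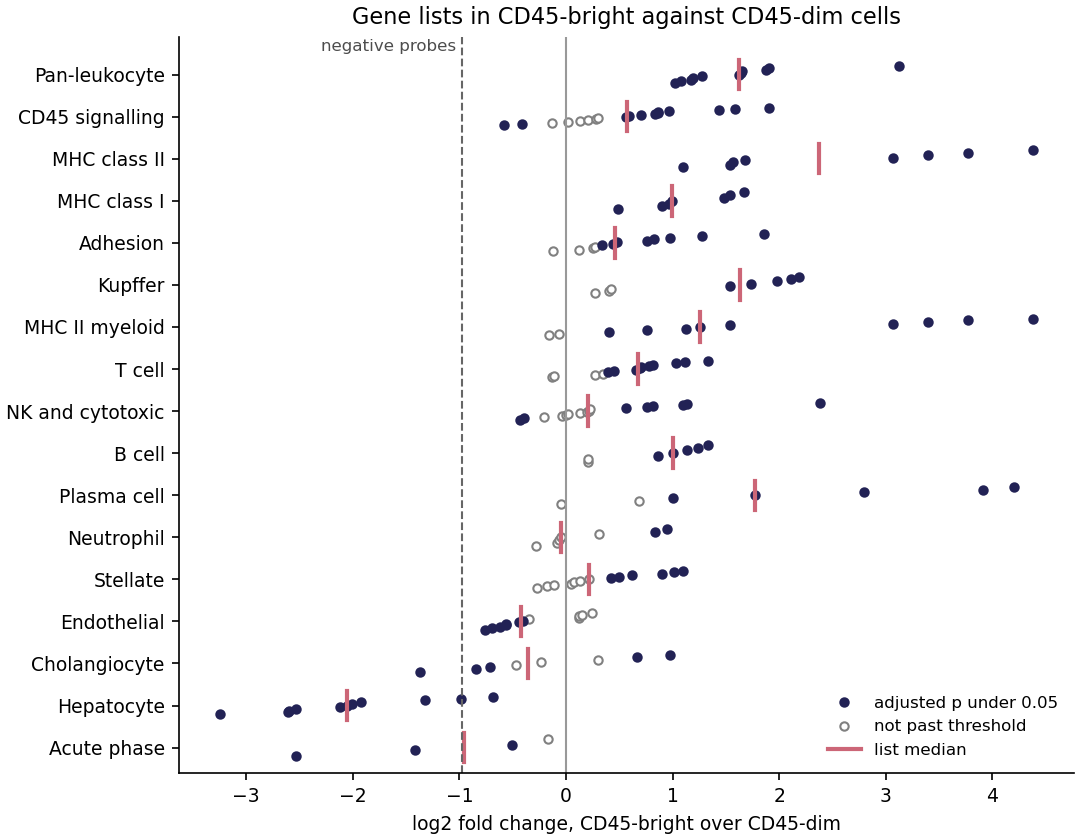
Fitted log2 fold change of CD45-bright over CD45-dim cells (x axis) for the genes of each list (rows), with 1 point per gene, filled where the adjusted p is under 0.05, a bar at the list median and a dashed line at the negative probes (-0.98). All pan-leukocyte and MHC class II genes lie to the right of 0, and all 11 hepatocyte genes to the left.

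Hepatocyte genes were lower in bright cells. All 11 were called lower, with a median of -2.05. Ttr, transthyretin, stood at 1504 CPM in the lowest, 2560 in the median and 10230 in the highest bright sum, against 20040 to 68190 CPM in dim cells. The sides did not overlap and the log2 fold change was -3.25 (SE 0.415, adjusted p = 5.29e-05). The vitamin D binding protein Gc (-2.60), the apolipoproteins Apoa1 (-2.60) and Apoc1 (-2.05), the fibrinogen chain Fgg (-2.53), Azgp1 (-2.12) and the urea cycle enzyme Arg1 (-2.01) fell as well. Outside the list, Vegfa, an endothelial growth factor, stood at 599 to 764 CPM in bright and 2480 to 4191 CPM in dim cells (-1.91). Selenop, the plasma selenium carrier, had a log2 fold change of -1.80, and Neat1, a long noncoding RNA of the nucleus, of -1.73. Of 4 acute phase genes, Saa1/2 (-0.50), Crp (-1.42) and Fgg were called lower. Saa1/2 was not past the threshold without the dense fields, at 0.07.

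Other cells of the liver gave mixed values. Of 12 endothelial genes, 0 were called higher and 7 lower, with Tek (-0.76), Tie1 (-0.70) and Kdr (-0.62) the lowest in p, all by less than the negative probes. Endothelial calls were 2 higher and 3 lower without the dense fields, where Kdr was not past the threshold (-0.18, adjusted p = 0.247). Of 8 cholangiocyte genes, Spp1 (-1.37), Krt19 and Sox9 were called lower, and Cd24a (0.97), which lymphoid cells also express, and Muc1 higher. Of 13 stellate cell genes, 6 were called higher with a median of 0.22. Dcn, decorin, stood at 2251 to 5493 CPM in bright and 1294 to 2694 CPM in dim cells (0.90), and Col1a1 and Col3a1, fibrillar collagen chains, had log2 fold changes of 1.01 and 1.10. With library size alone 3 stellate genes were called higher and 2 lower, so the direction of that list rests on the scaling. Fn1, fibronectin, which hepatocytes make as a plasma protein, had a log2 fold change of -1.56. No erythroid gene of 2 was called, with Hbb at 0.37 and Hba-a1/2 at 0.17. The part of transcripts from neighbouring cells in these values was not tested.

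Cells were next put into classes by their own counts, where a class needs at least 3 counts from its list and more than from any of the 14 lists besides. In bright cells the class of MHC class II positive myeloid cells held 29.6%, 15.2% and 28.9% in control areas 1 to 3 and 60.1%, 36.8% and 59.6% in HIRA KO areas 1 to 3, against 0.522% ± 0.186 (SD, n = 6 areas) of dim cells. Because that list holds Cd74 and class II genes, B cells and dendritic cells can fall into it. The plasma cell class held 32.5%, 1.46% and 1.70% in control areas 1 to 3 and 18.7%, 5.71% and 26.9% in HIRA KO areas 1 to 3. The Kupffer class ran from 0.393% in HIRA KO area 1 (95% Wilson interval 0.108 to 1.42) to 30.4% in control area 2 (25.8 to 35.5). Where the plasma cell share was high the Kupffer share was low: the areas with a dense field had the 3 highest plasma shares and the 3 lowest Kupffer shares. The NK and cytotoxic class held 7.82% ± 4.14, the T cell class 1.97% ± 1.26 and the neutrophil class 1.47% ± 0.900 of bright cells, against 0.833%, 0.393% and 0.107% of dim cells. The B cell class held only 0.213% ± 0.307 of bright and 0.0948% of dim cells and was higher in 3 of 6 areas, although 5 of 7 B cell genes were called higher. How many B cells fell into the class II myeloid class was not tested.

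The hepatocyte class held 5.40% ± 5.40 of bright and 72.9% ± 9.30 of dim cells, and the endothelial class 1.08% and 3.53%. No class was assigned to 15.2% of bright and 17.1% of dim cells. In all, 9 classes differed in the same direction in 6 of 6 areas, each at the smallest exact p that 6 areas allow (exact sign-flip test, two-sided, p = 0.03125). After adjustment over the 15 shares compared this was 0.0521, above the threshold. A class set by counts is a range and not a cell type: 13 of 198 Kupffer, 25 of 992 class II myeloid, 3 of 369 plasma and 23 of 194 NK and cytotoxic bright cells stood at exactly 3 counts.

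**Figure D4:**
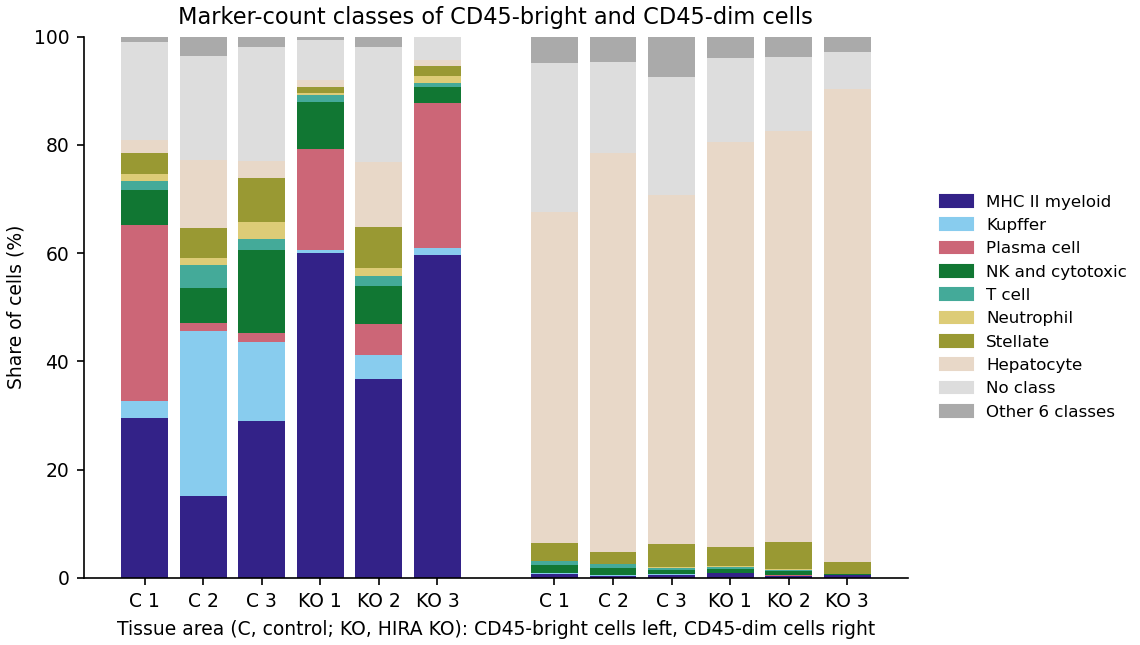
Share of cells (y axis, %) in each marker-count class, stacked for the bright cells (left) and dim cells (right) of each of the 6 areas. The class II myeloid class reached 60.1% of bright cells in HIRA KO area 1, the Kupffer class 30.4% in control area 2, and the hepatocyte class took 72.9% of dim cells on average.

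Leukocyte classes differed in how far up the CD45 scale they lay. Over areas with at least 20 cells of a class, the median CD45 percentile of the class II myeloid class was 85.7 to 92.4, of the plasma class 79.1 to 97.8, of the Kupffer class 77.1 to 93.95 and of the NK and cytotoxic class 65.5 to 93.6. The hepatocyte class lay at 34.8 to 43.7. Of all class II myeloid cells 19.5% to 36.6% were bright, and of all Kupffer cells 1.33% to 40.9%, lowest in HIRA KO area 1 and highest in control area 2. The top 5% therefore left out most cells of each of these classes, with the plasma class of control area 1 (75.6% bright) and of HIRA KO area 3 (61.2% bright) as exceptions.

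The share of counts from each list along the stain gave the same picture. Kupffer genes took their highest share, 1.66% to 4.37% of counts, below the 96th percentile of the stain in every area. That band was the 75th to 90th percentile in HIRA KO areas 1 and 3 and the 90th to 94th in control area 1, and it lay directly next to the threshold in control areas 2 and 3. In HIRA KO area 2 the share was 2.02% both between the 90th and 94th and between the 95th and 96th percentiles. In the top 1% of cells Kupffer genes took 0.437% to 2.25%. Class II myeloid genes took 4.63% to 8.55% of counts in the top 1%, against 0.757% to 0.849% in the lowest 25% of cells by stain. Hepatocyte genes took 5.71% to 13.3% of counts in the lowest 25% and 0.647% to 2.36% in the top 1%. These bands are parts of the rule's own scale and are given as a description.

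**Figure D5:**
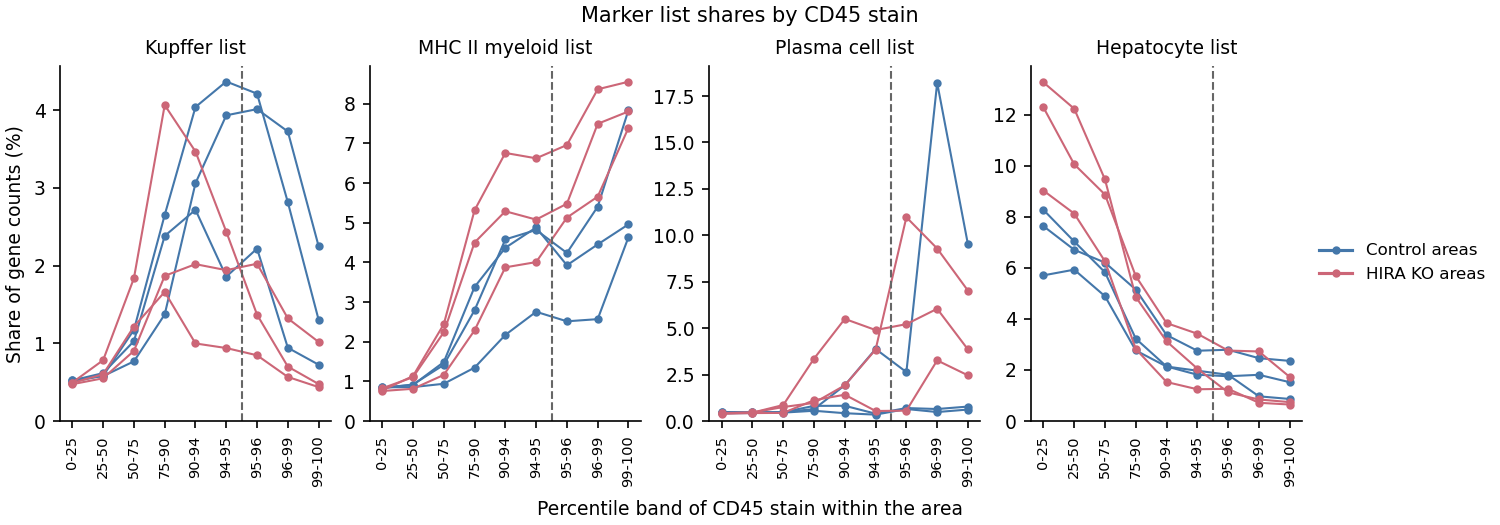
Share of gene counts (y axis, %) from the Kupffer, class II myeloid, plasma cell and hepatocyte lists in 9 bands of CD45 percentile (x axis), with 1 line per area and a dashed line at the 95th percentile. Kupffer genes peak below or next to the line and fall to 0.437% to 2.25% in the top 1%, while class II myeloid genes reach 4.63% to 8.55% there.

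Bright cells lay beside one another. Among the 20 nearest cells of a bright cell, 53.0%, 7.76% and 15.8% were bright in control areas 1 to 3 and 66.0%, 21.1% and 74.8% in HIRA KO areas 1 to 3. Around dim cells 2.18% ± 1.51 (SD, n = 6 areas) were bright, a lower share than around bright cells in 6 of 6 areas. Both the cells and their neighbours were chosen by the CD45 stain, so these shares are a description without a test. The 3 highest values were again those of the areas with a dense field. Without the dense fields the mean difference between the sides was 13.9 percentage points in place of 37.6.

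Within those 3 areas, bright cells of the dense field differed from bright cells of the other fields. The plasma cell class took 59.1% of bright cells in the dense field of control area 1 and 1.59% elsewhere, 20.1% and 14.1% in HIRA KO area 1, and 29.8% and 0 in HIRA KO area 3, where only 37 bright cells lay elsewhere. The class II myeloid class took 26.8% of bright cells in the dense field of control area 1 and 32.8% elsewhere. It took 66.0% and 41.3% in HIRA KO area 1, and 62.2% and 35.1% in HIRA KO area 3. Igkc stood at 114830, 37196 and 46792 CPM in the dense fields and at 7412, 14806 and 4197 CPM elsewhere. Cd5l ran the other way, at 463, 394 and 400 CPM in the dense fields and 3783, 1033 and 4896 CPM elsewhere. S100a9 was also lower in the dense fields, at 708, 638 and 542 CPM against 1380, 1090 and 5596 CPM. Median DAPI was 9837, 10064 and 12019 units in the dense fields and 3051, 7440 and 5601 units elsewhere. Ptprc had no shared direction, at 1362, 2241 and 2980 CPM in the dense fields and 1176, 1550 and 4197 CPM elsewhere. The fields were picked for their bright cells, so these values carry no test.

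The genotypes were compared within bright cells. At 1 common intensity for the whole slide (6444 units), 3.21%, 0.425% and 1.80% of cells passed in control areas 1 to 3 and 11.7%, 2.73% and 8.07% in HIRA KO areas 1 to 3. The groups overlapped, at 1.81% ± 1.40 and 7.51% ± 4.52 (SD, n = 3 areas each), and as the stain chose the cells these shares are given without a test. In the tests that follow, 3 areas against 3 cannot go below an exact p of 0.1. The class II myeloid class was the one class share whose groups did not overlap with all fields, at 24.6% ± 8.11 of bright cells in control and 52.2% ± 13.3 in HIRA KO areas (exact permutation test, two-sided, p = 0.1, adjusted p = 0.75 over 15 shares). Kupffer shares overlapped at 16.1% ± 13.7 and 2.02% ± 2.06 (exact permutation p = 0.2), as did plasma cell shares at 11.9% ± 17.9 and 17.1% ± 10.7 (exact permutation p = 0.8). These are shares of bright cells and not of all cells. Over all cells kept, the Kupffer class held 261 of 8181, 254 of 6829 and 329 of 7058 cells in control areas 1 to 3. In HIRA KO areas 1 to 3 the Kupffer class held 150 of 10180, 230 of 10150 and 298 of 7519 cells. Median area of bright cells was 6562 ± 1062 in control areas and 5199 ± 313 square pixels in HIRA KO areas, without overlap (exact permutation p = 0.1, adjusted p = 0.45). HIRA KO areas include 2 of the 3 areas with a dense field. Without those fields the HIRA KO minus control difference in the class II myeloid share was 10.8 percentage points in place of 27.6, and 3 class shares did not overlap between the genotypes.

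Among 995 genes tested between the bright cells of HIRA KO and control areas, edgeR's quasi-likelihood test called 0 higher (0%) and 1 lower (0.101%), with 75 genes at an unadjusted p under 0.05 and 2 other genes, Csf1r and Slc40a1, called by DESeq2. The gene called was Cd163, the haemoglobin scavenger receptor of tissue macrophages (chromosome 6, 124304636 to 124330529). It stood at 498, 1686 and 1387 CPM in bright cells of control areas 1 to 3 and at 242, 340 and 171 CPM in those of HIRA KO areas 1 to 3. These values do not overlap and rest on 28, 79 and 50 counts in control and 22, 23 and 14 counts in HIRA KO areas. The highest negative probe of the same sums held 14, 24 and 13 counts in control and 24, 29 and 19 in HIRA KO areas. Each HIRA KO count of Cd163 was thus below that of a negative probe, and its mean count over all sums was below that of the highest negative probe. The log2 fold change of Cd163 was -2.11 (SE 0.364, adjusted p = 0.0355). Over the alternatives run its adjusted p ranged from 0.000265 to 0.342, and the call was lost in 9 of the 17 that gave it one. Cd163 is on the Kupffer list, whose class held 16.1% of bright cells in control and 2.02% in HIRA KO areas. How far the call follows that difference in composition was not tested. Dim cells held 407 to 595 CPM of Cd163, so the HIRA KO bright values lay below the dim range. The highest negative probe stood at 580 to 695 CPM in dim sums. In the bright sums of HIRA KO areas 1 to 3 it stood at 264, 429 and 232 CPM. Both sides were near these background levels, so less Cd163 than in dim cells is not shown. Without the dense fields the test called Cd163, Jchain and Igha, and with slide row as a block it called 14 genes. For 115 genes (11.6%) the bright values of the groups did not overlap.

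The difference between bright and dim cells was not shown to depend on genotype. The interaction term of edgeR's quasi-likelihood test called 0 of 998 genes (0%), with 76 at an unadjusted p under 0.05 and 6 called by DESeq2. The smallest adjusted p was 0.0878, for Cd163. In 108 genes (10.8%) the change between sides did not overlap between the groups. Leaving out HIRA KO area 2 gave 19 genes for this term and 15 for the comparison within bright cells, and leaving out control area 1 gave 3 and 4, so both counts rest on single areas.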

How the data were processed

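Deposited per field of view were transcript counts per segmented cell and, in a second table, mean and maximum stain intensity, cell area and position (other units, pixels). Bruker Spatial Biology ran the CosMx profiling for the authors, and the platform's software and version are not given in the sources used here. Counts are raw whole numbers. The members and all gene lists were chosen with earlier results of these data known. Cells under 20 gene counts were left out (2215 of 52132), and negative probes and lines outside cells stayed out of library sizes. Counts were summed per area and side into 12 sums. Genes were tested in R 4.3.3 with edgeR 4.0.16 (TMM, filterByExpr, quasi-likelihood, area as block for paired sides, Benjamini-Hochberg), with DESeq2 1.42.0 as an alternative. CPM is per 1000000 gene counts of a sum, unscaled. Shares and stains were tested in Python 3.11.15 over areas by exact sign-flip or permutation tests. Genes named are the 12 largest folds per direction past the threshold, in the same direction in all 6 areas and with mean counts over those of every negative probe, up to 5 per direction for the genotype tests, the genes of stained proteins, and per list the 3 lowest p and the highest count. Members counted or singled out beyond that rule, such as Cd5l and Jchain, were chosen after their values were seen. Alternatives changed the threshold, count minimum, cell size, normalization, filter, depth, block and areas. The settings without the 3 dense fields and with classes from thinned cells were added after seeing the data. The fits were tested on simulated data. Gene positions are from RefSeq GRCm38.p6. A few members of the lists are not reported here by name.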

Additional observations from a re-analysis of the deposited data

Results flagged for a closer look

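The share of bright cells in the densest field stood apart from the other fields of its area in 3 of 6 areas by Dixon's ratio of the gap to the range, a description here because the CD45 stain chose the cells. It was 22.6% in control area 1, where the next field reached 4.68% (ratio 0.855, critical value 0.493), 25.6% in HIRA KO area 1, where the next reached 4.02% (0.849, critical value 0.526), and 28.02% in HIRA KO area 3, where the next reached 1.51% (0.946, critical value 0.526). The ratios were 0.122, 0.179 and 0.151 in control area 2, control area 3 and HIRA KO area 2. Chance alone flags about 1 in 20 groups.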

How the results depend on the processing

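Of 998 genes, 497 were called between the sides (253 higher, 244 lower). The calls came to 294 (116 lower) without bright cells of the other channels and 197 (118 higher, 79 lower) with cells thinned to 20 counts. Lower calls came to 136 for the top 1%, and library size alone gave 156 higher and 430 lower. Leaving out 1 area gave 427 to 500 calls, 222 to 249 higher and 200 to 251 lower. The numbers in the labels are those of fields and pair no samples across genotypes. Pairing here is by area, and without that replicate block 270 genes were called higher and 255 lower, 525 in all. The interaction gave 1 call for the top 10%, 1 with thresholds per field, 4 without the dense fields and 6 with DESeq2, and 0 to 19 leaving out 1 area. Within bright cells the genotype test gave 2 calls for the top 10%, 2 with thresholds per field, 3 without the dense fields, 2 with DESeq2 and 14 with slide row as block. It gave 0 for the top 1%, by maximum CD45, at 50 counts, in small cells, without bright cells of the other channels, thinned, and with library size alone, and 0 to 15 leaving out 1 area. The Ptprc share difference was 2.69 percentage points, 2.005 without bright cells of the other channels, where it missed the threshold, and 2.16 to 3.05 leaving out 1 area, where no p can go below 0.0625. Leaving out 1 area, the neighbour difference of 37.6 points ranged from 30.2 to 44.3, and that at 1 common intensity (5.69) from 3.59 to 8.08. Without the dense fields the neighbour difference was 13.9 points. Of the measures 8 kept 1 direction in every area, and of the classes 9 (9 to 10 leaving out 1 area). The number of classes not overlapping between genotypes was 1, and 2 for the top 1%, top 10%, small cells or classes from 2 counts, 3 with thresholds per field, without the dense fields or thinned, 4 by maximum CD45 or without bright cells of the other channels, and 1 to 7 leaving out 1 area. Values that changed sign were nuclear area, bright minus dim (63.2 by maximum CD45 and 90.8 in small cells), gene counts per cell (-8.33 with thresholds per field and -13.5 without the dense fields), the plasma share between genotypes (-0.0309 without control area 2), Kit (0.0727 without bright cells of the other channels), Cxcl12 (-0.20 for the top 1%) and Saa1/2 (0.0721 without the dense fields). The causes were not tested. Of 1117 values of named genes under these settings, 1045 kept direction and call, as did 459 of 480 leaving out 1 area. Depth limits low genes, since 708 of 998 had a mean count above that of the highest negative probe.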

Other observations

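Cells under 20 gene counts were outside the rule. Of these, 14 of 682, 8 of 245 and 10 of 564 in control areas 1 to 3, and 4 of 362, 7 of 246 and 4 of 116 in HIRA KO areas 1 to 3, had a CD45 intensity above the threshold of their area, which is 1.11% to 3.45%. Ccl19, a chemokine of lymphoid tissue, stood at 3569, 3884 and 2593 CPM in bright cells of the 3 dense fields and at 1840, 1664 and 2332 CPM in bright cells of the other fields of those areas. Ms4a1, the B cell antigen CD20, stood at 926, 2023 and 2645 CPM in the dense fields and at 664, 1090 and 699 CPM elsewhere.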
